A study of Mus musculus with 2 samples.

Results

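The 9 genes Trp63, Tfap2a, Tfap2c, Klf4, Klf5, Grhl1, Grhl3, Ovol1 and Zfp750 encode transcription factors of epidermal identity and differentiation. They were taken as the rows with these symbols in the deposited gene list, and all 9 were found, each once, among 56694 listed genes. In keratinocytes p63, the product of Trp63, holds cells in the stratified epithelial fate and is found mainly in the basal layer, and the AP-2 factors encoded by Tfap2a and Tfap2c bind many of the same control regions. When cells leave the basal layer, Zfp750, itself a target of p63, the zinc finger factor Klf4 and the Grainyhead-like factors Grhl1 and Grhl3 switch on genes of the spinous and granular layers and of the skin barrier. Klf5 is best known from proliferating epithelial cells and Ovol1 as a zinc finger repressor that restrains growth during differentiation, and hair follicle keratinocytes, which descend from the same epidermis, use several of these factors as well.

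The values come from single cells of dorsal skin epidermis of C57Bl/6N mice aged 2 days, with 1 library per genotype. The Gli2EKO library (labelled Gli2_EKO) came from mice that carried K14Cre and Gli2 fl/fl, in which Cre is made under the keratin 14 promoter of basal keratinocytes, to delete Gli2, a transcription factor of the Hedgehog pathway, in keratinocytes. The control library (genotype label WT) came from Gli2 fl/fl littermates without Cre. The number of mice behind each library is not stated in the sources used here, and Gli2 UMIs could not check the labels because the deleted exons are not stated and the assay counts the 3' end of transcripts.

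The control library held 71021773 UMIs (unique molecular identifiers, 1 per captured transcript) in 6326 barcodes and the Gli2EKO library 48866478 UMIs in 4296 barcodes, and the libraries shared 0 barcodes. After filters on genes, mitochondrial UMIs and doublets, 4456 control and 3093 Gli2EKO cells were kept, of which 3321 and 2307 were keratinocytes. Levels are in CPM, UMI counts scaled to a common total: within a library, all UMIs of the gene in a class were added up and divided by the total UMIs of that class. The control value always comes first. Intervals in parentheses are exact at 95% and cover counting error only, because 1 library per genotype leaves no replicates, so that no test was made and each genotype difference is a difference between these libraries.

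Keratinocytes were clustered with the 9 members and the other transcription factors named below kept out of the variable genes, and clusters were named by marker genes. The interfollicular epidermis (IFE) fell into basal-like cells (352 control and 562 Gli2EKO cells), spinous-like cells (91 and 165) and granular-like cells (77 and 91), the last pair joined as suprabasal where so stated. The follicle comprised cells like the outer root sheath (ORS; 862 and 521), upper follicle (486 and 291), matrix (446 and 184), inner root sheath (IRS; 334 and 138), companion layer (229 and 149), a Foxq1-expressing hair lineage (87 and 28), hair shaft (69 and 29) and sebaceous gland (SG; 45 and 26), and 243 and 123 keratinocytes stayed unnamed. The companion layer label rests on Krt6a, Krt6b, Krt16, Krt79 and Cst6 and is not certain. Krt75, which the study used as a companion layer marker, was among the hair lineage markers here. A sub-cluster of this class, led by Defb6, was split from the cluster that also held the spinous-like and granular-like cells.

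The layer names were checked against their markers. The summed basal markers fell from 31772 and 33322 CPM in basal-like to 1419 and 1965 CPM in granular-like cells, while the summed spinous markers, Krt1 and Krt10 among them, rose from 3674 and 3977 CPM in basal-like to 38856 and 35346 CPM in spinous-like and 71361 and 79324 CPM in granular-like cells. The granular label held less well, because most of its cells carried few granular transcripts: the 12 granular markers, Lor and Flg among them, made up a median of 0.127% of the UMIs of a control cell and 0.0840% of a Gli2EKO cell, and only 16 and 13 cells reached 1%. Within the granular-like class these markers summed to 35697 and 6168 CPM, and this gap lies in the few marker-rich cells, where Lor gave 49313 and 4024 CPM, against 94.2 and 41.7 CPM in the rest of the class. The granular-like class is therefore read below as upper suprabasal cells with a small granular end, and members are also given in both portions.

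All 9 members are protein-coding genes, matched by identifier to the GENCODE annotation of GRCm39, the build of the deposited counts. The gene bodies were Trp63 (ENSMUSG00000022510) at chr16:25502513-25710852 on the plus strand, Tfap2a (ENSMUSG00000021359) at chr13:40868778-40891852 on the minus strand, Tfap2c (ENSMUSG00000028640) at chr2:172391321-172400542 on the plus strand, Klf4 (ENSMUSG00000003032) at chr4:55527139-55532528 on the minus strand and Klf5 (ENSMUSG00000005148) at chr14:99536086-99552473 on the plus strand. The factors of differentiation were Grhl1 (ENSMUSG00000020656) at chr12:24622197-24669816 on the plus strand, Grhl3 (ENSMUSG00000037188) at chr4:135268329-135300992 on the minus strand, Ovol1 (ENSMUSG00000024922) at chr19:5599164-5610674 on the minus strand and Zfp750 (ENSMUSG00000039238) at chr11:121401804-121410620 on the minus strand. Klf4 and Grhl3 lie on the same chromosome.

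The 250 bases before the canonical start of each member were searched on both strands for short words that members of these families are known to bind, and matches are given for 8 members, all but Ovol1. The AP-2 word GCCNNNGGC stood before 5 of them (Klf4, Klf5, Grhl1, Zfp750 and Tfap2a), against 13.2% of 21770 protein-coding promoters. The fixed letters of this word are all G or C. In that order, the 250 bases of the 5 genes held 73.6%, 68.8%, 74%, 52.8% and 54.8% G and C. The median over all promoters was 53.2%. The part of base composition in these matches was not tested. The KLF word GGGNGTGG stood before 2 (Grhl3 and Zfp750), against 16.8% of all promoters, and the TATAAA word before 2 (Grhl3 and Tfap2a), against 11.9%. The AP-1 word TGANTCA stood before 0 of the 8, against 6.17% of all promoters. No matches overlapped each other, and a match describes the letters and not binding. The promoters of the 3 members that rose most from basal to suprabasal cells in the values below are shown 5′ to 3′ along the gene, with matches in capitals and up to the first annotated base of any transcript.

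Grhl1, chr12:24621977-24622196, plus strand: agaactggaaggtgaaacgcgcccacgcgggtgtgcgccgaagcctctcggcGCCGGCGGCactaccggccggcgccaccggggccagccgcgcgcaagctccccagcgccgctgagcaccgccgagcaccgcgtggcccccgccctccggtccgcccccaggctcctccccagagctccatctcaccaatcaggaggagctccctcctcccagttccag
Grhl3, chr4:135300993-135301237, minus strand: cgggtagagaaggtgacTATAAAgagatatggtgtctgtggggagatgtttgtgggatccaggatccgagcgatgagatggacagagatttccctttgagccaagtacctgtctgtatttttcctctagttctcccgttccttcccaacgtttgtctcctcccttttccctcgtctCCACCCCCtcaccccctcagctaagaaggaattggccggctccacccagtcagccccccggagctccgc
Zfp750, chr11:121410621-121410870, minus strand: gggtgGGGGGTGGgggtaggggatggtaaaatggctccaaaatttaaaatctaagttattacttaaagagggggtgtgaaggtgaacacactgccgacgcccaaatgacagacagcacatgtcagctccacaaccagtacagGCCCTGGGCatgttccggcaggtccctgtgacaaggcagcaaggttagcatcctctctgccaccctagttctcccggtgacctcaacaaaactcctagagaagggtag

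Distances below run from the canonical start to the first base of a match. The Grhl1 stretch carries 1 AP-2 word, 198 bases before the start, and a further AP-2 word, 23 bases before it, lies beyond the printed stretch. The Grhl3 stretch carries the TATAAA word 233 bases and the KLF word 74 bases before the start. In Zfp750 the KLF word lies 245 and the AP-2 word 108 bases upstream.

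From basal to suprabasal IFE, the factors divided into a group that rose past 2-fold in both libraries and a group that did not. Of the 9 members, 4 (Klf4, Grhl1, Grhl3 and Zfp750) were at least 2-fold higher in suprabasal than in basal-like cells in both libraries, against 5.53% of the 11745 genes with at least 20 UMIs over both classes in each library, and 0 were at least 2-fold lower, against 16.4% of genes. All 9 members passed that limit on UMIs. The median log2 ratio of the members was 1.197 in the control and 0.64 in the Gli2EKO library, and that of all genes compared was −0.31 and −0.32. The cells were sorted into classes by marker genes of the same layers, so that the direction of any gene that moves with those markers is a description of the layers and not an independent result.

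The steps of the change were uneven. Between basal-like and spinous-like cells 3 members (Grhl1, Grhl3 and Zfp750) were at least 2-fold higher in both libraries, against 2.49% of genes, and 0 were lower, against 11%. Between spinous-like and granular-like cells 0 members passed 2-fold in either direction, against 4.8% of genes higher and 6.61% lower. Over the whole span from basal-like to granular-like cells the same 4 members were higher, against 6.82% of genes, and Trp63 was the 1 member that was lower, against 24%.

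**Figure D1:**
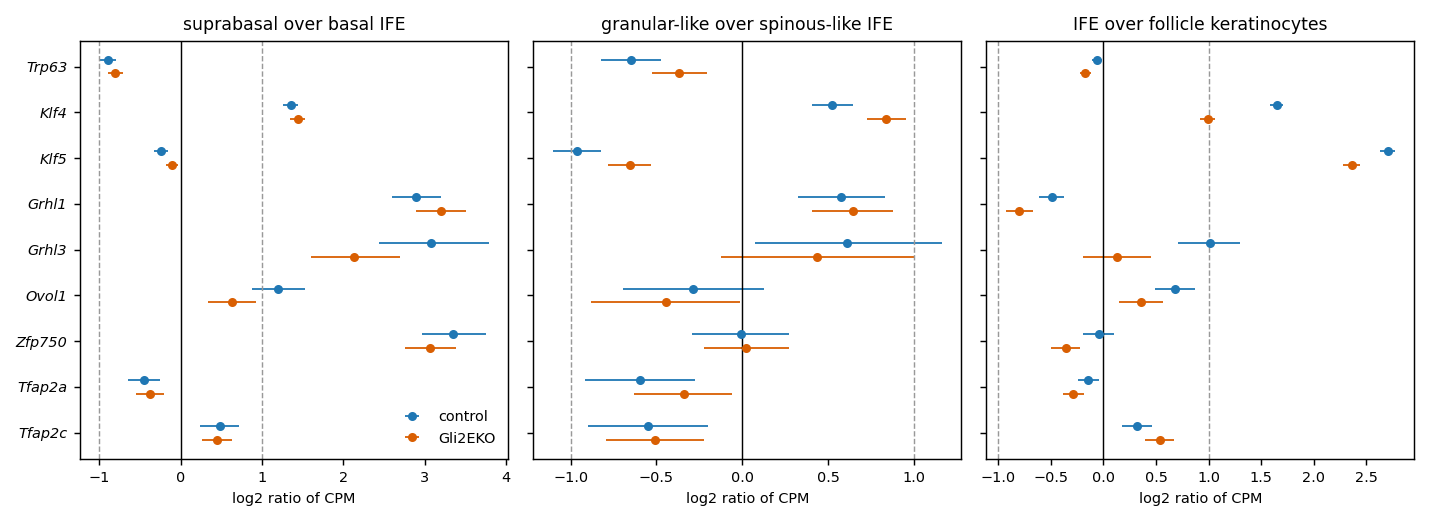
Log2 ratio of CPM for each member (rows) between suprabasal and basal IFE, between granular-like and spinous-like IFE, and between all IFE and all follicle keratinocytes. Points are the control (blue) and Gli2EKO (orange) libraries, bars their 95% counting intervals, and dashed lines a 2-fold difference; in the left panel Klf4, Grhl1, Grhl3 and Zfp750 lie beyond the right line in both libraries, and in the right panel Klf5 does.

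Trp63, the gene of the epidermal master regulator p63, was highest in basal-like cells among the IFE layers and lower at each step above. Basal-like cells held 492 CPM (475 to 510.1) in the control and 416 CPM (402 to 429.6) in the Gli2EKO library, spinous-like cells 332 and 266 CPM, and granular-like cells 212 and 206 CPM. Both libraries gave the same order, and each step's interval lay below 0: the log2 ratio of spinous-like over basal-like cells was −0.57 (−0.70 to −0.44) in the control and −0.65 (−0.76 to −0.54) in the Gli2EKO library, and that of granular-like over spinous-like cells −0.65 (−0.82 to −0.47) in the control and −0.37 (−0.53 to −0.21) in the Gli2EKO library. The transcript did not vanish above the basal layer, since a median granular-like cell still held 4 Trp63 UMIs in each library and 11.7% and 15.4% of these cells held none, at a median depth of 28571 and 27367 UMIs. In the marker-rich granular cells it was lower again, at 44.2 and 46.8 CPM against 261 and 234 CPM in the rest of the class, a log2 ratio of −2.56 (−3.23 to −1.96) in the control and −2.32 (−3.09 to −1.65) in the Gli2EKO library.

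In the follicle Trp63 was as high in the joined ORS-like class as in basal IFE, but the clusters of that class differed. They stood at 478 and 521 CPM, at 375 and 384 CPM and, in a cluster led by Nlgn1 and Adamts19, at 962 and 950 CPM. ORS-like cells held 512 and 545 CPM, hair lineage-like cells 499 and 635 CPM, upper follicle-like cells 498 and 369 CPM and companion layer-like cells 417 and 314 CPM. Lower levels were found in IRS-like (324 and 239.9), matrix-like (298 and 337) and hair shaft-like cells (265 and 226 CPM), and the lowest among keratinocytes in SG-like cells, at 92.4 and 75.1 CPM. The matrix-like class joined a cluster at 271 and 304 CPM with a smaller cluster at 866 and 1051 CPM. With the ORS-like clusters joined, the control basal-like and ORS-like levels did not differ beyond counting error, with a log2 ratio of −0.06 (−0.12 to 0.01). In the Gli2EKO library the basal-like level was lower, at −0.39 (−0.46 to −0.32).

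The AP-2 genes changed little across the layers, and in opposite directions. Tfap2a, whose product helps to set ectodermal fate, was at 109 and 99.5 CPM in basal-like, 98.9 and 85.0 CPM in spinous-like and 65.4 and 67.1 CPM in granular-like cells, a suprabasal over basal log2 ratio of −0.45 (−0.64 to −0.25) in the control and −0.37 (−0.54 to −0.20) in the Gli2EKO library. Tfap2c, which acts beside it, peaked in spinous-like cells, at 48.6 and 58.4 CPM, 82.3 and 91.9 CPM and 56.3 and 64.7 CPM in the 3 layers, a suprabasal over basal log2 ratio of 0.48 (0.24 to 0.72) in the control and 0.45 (0.26 to 0.63) in the Gli2EKO library. The fall of Tfap2c from spinous-like to granular-like cells, −0.55 (−0.90 to −0.20) in the control and −0.51 (−0.79 to −0.22) in the Gli2EKO library, brought it back to a level that did not differ from the basal one beyond counting error.

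Across the follicle Tfap2a was highest in IRS-like (153 and 173 CPM) and upper follicle-like cells (152 and 141 CPM) and lowest in hair shaft-like cells (47.7 and 61.9 CPM). Melanocytes, which descend from the neural crest and not from the epidermis, held as much, at 163 and 148 CPM. Tfap2c followed another order, with 68.0 and 77.5 CPM in IRS-like, 57.9 and 63.8 CPM in matrix-like and only 26.6 and 27.5 CPM in ORS-like cells, and no more than 1 Tfap2c UMI was counted in the melanocytes of either library. Fibroblasts showed the reverse of melanocytes, with 4.84 and 3.60 CPM of Tfap2a and 33.3 and 45.5 CPM of Tfap2c.

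**Figure D2:**
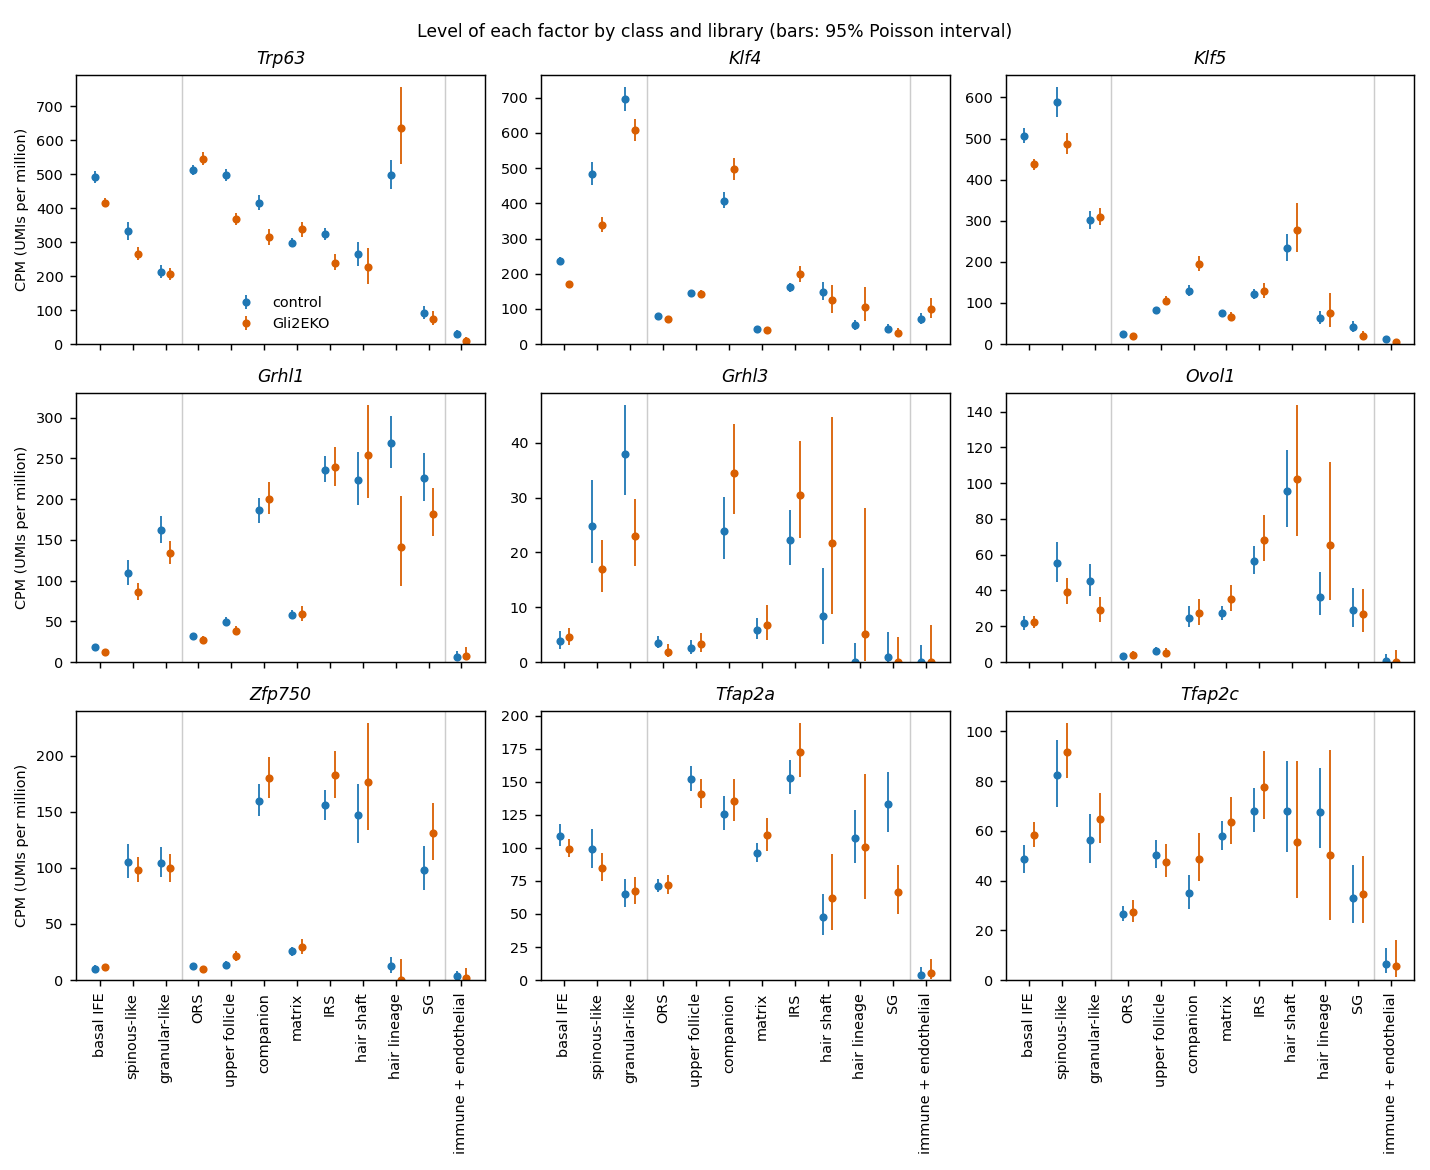
Level of each member in CPM (vertical axis, starting at 0 and scaled per gene) in the 3 IFE layers, the 8 follicle classes and the joined immune and endothelial cells, for the control (blue) and Gli2EKO (orange) libraries with 95% Poisson intervals. Klf5 stands at 301 CPM or more in each IFE layer and at 18.6 to 25.5 CPM in ORS-like cells. Trp63 is as high in the joined ORS-like class, whose clusters differ, as in basal-like cells.

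The Krüppel-like genes Klf4 and Klf5 marked the IFE in different layers. Klf4, whose product is needed for the permeability barrier, rose at each step, from 236 and 170.4 CPM in basal-like to 483 and 339.7 CPM in spinous-like and 696 and 608 CPM in granular-like cells. The suprabasal over basal log2 ratio was 1.35 (1.26 to 1.45) in the control and 1.44 (1.35 to 1.53) in the Gli2EKO library, and the step from spinous-like to granular-like cells was 0.53 (0.41 to 0.65) in the control and 0.84 (0.73 to 0.95) in the Gli2EKO library. Basal-like cells were not without it, since 11.9% of the control and 19.6% of the Gli2EKO cells of that class had no Klf4 UMI. The marker-rich granular cells did not give 1 direction in both libraries: their Klf4 level was 531 against 744 CPM in the rest of the class in the control, a log2 ratio of −0.49 (−0.68 to −0.30), and 1097 against 522 CPM in the Gli2EKO library, a log2 ratio of 1.07 (0.91 to 1.24).

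Klf5, a factor of growing epithelial cells, was highest in spinous-like cells and lowest in granular-like cells of the IFE, at 507 and 437 CPM in basal-like, 588 and 487 CPM in spinous-like and 301 and 309.6 CPM in granular-like cells. Its suprabasal over basal log2 ratio stayed near 0, at −0.24 (−0.33 to −0.16) in the control and −0.11 (−0.18 to −0.03) in the Gli2EKO library, because a small rise into the spinous-like class (0.21 and 0.16) was followed by a larger fall into the granular-like class (−0.96 and −0.65). The fall went on in the marker-rich granular cells, which held 65.4 and 146 CPM against 371 and 339 CPM in the rest of the class.

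Klf5 was the member that set the IFE apart from the follicle. Of the 9 members it alone was at least 2-fold higher in IFE than in follicle keratinocytes in both libraries, against 5.12% of 15324 genes, and 0 members were at least 2-fold lower, against 14.9%. IFE keratinocytes together held 475 and 425 CPM and follicle keratinocytes 73.0 and 82.6 CPM of Klf5, a log2 ratio of 2.70 (2.63 to 2.77) in the control and 2.36 (2.28 to 2.44) in the Gli2EKO library. Among the contrasts computed it was widest between the cells in contact with the basement membrane, where basal-like IFE cells held 507 and 437 CPM and ORS-like cells 25.5 and 18.6 CPM, a log2 ratio of 4.31 (4.13 to 4.50) in the control and 4.56 (4.28 to 4.84) in the Gli2EKO library. The ORS-like level is low, and its share of cells did not exceed background, as given with the shares of cells below. Other follicle classes lay between, from 41.8 and 19.7 CPM in SG-like cells to 129 and 195 CPM in companion layer-like and 233 and 279 CPM in hair shaft-like cells. Klf4 came next, at 384 and 285 CPM in the IFE and 123 and 143 CPM in the follicle, a log2 ratio of 1.65 (1.58 to 1.71) in the control and 0.99 (0.92 to 1.06) in the Gli2EKO library, the latter value just inside 2-fold.

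Within the follicle Klf4 was highest in companion layer-like cells, at 408 and 496 CPM, which joined a sub-cluster led by Defb6, Cst6 and Krt79 at 816 and 824 CPM (52 and 54 cells) with a larger cluster at 202 and 204 CPM (177 and 95 cells). In the other follicle classes it was at most 161 and 198 CPM, the level of IRS-like cells. It was not particular to keratinocytes, since fibroblasts held 396 and 265 CPM and the joined immune and endothelial cells 71.4 and 100.2 CPM. Klf4 is also known as an early gene of the stress response to tissue dissociation. The 11 dissociation stress genes, Fos, Jun and Atf3 among them, summed to 8873 and 8344 CPM in basal-like, 8904 and 7615 CPM in spinous-like, 5117 and 6601 CPM in granular-like and 3104 and 2679.9 CPM in follicle cells. From spinous-like to granular-like cells that sum fell and Klf4 rose, but the sum differed between the spinous-like clusters. It was 3383 and 3408 CPM in the one led by Clca3a2 and Npl, below the granular-like sum. In the one led by Krt16, Fosl1 and Atf3 it was 13095 and 13870 CPM. Klf4 stood at 530 and 362 CPM and at 448 and 307 CPM in these clusters. The part of the stress genes in the layer differences of Klf4 was not tested. Of the 11 stress genes, 8 were at least 2-fold higher in IFE than in follicle cells in both libraries, against 5.12% of genes. This is the contrast in which Klf5 stood out. The part of the stress genes in the IFE to follicle differences of Klf4 and Klf5 was not tested.

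The Grainyhead-like genes were low in basal-like cells and several-fold higher above them. Grhl1, whose product drives desmosomal cadherin genes, rose from 18.7 and 11.7 CPM in basal-like to 109 and 85.7 CPM in spinous-like and 162 and 134 CPM in granular-like cells. Its suprabasal over basal log2 ratio was 2.89 (2.60 to 3.20) in the control and 3.20 (2.89 to 3.51) in the Gli2EKO library, and the further step from spinous-like to granular-like cells was 0.58 (0.32 to 0.83) in the control and 0.64 (0.41 to 0.88) in the Gli2EKO library. The median basal-like cell held 0 Grhl1 UMIs, and the median granular-like cell 4 in the control and 3 in the Gli2EKO library.

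Grhl3, whose product is needed for barrier formation and epidermal closure, gave few UMIs but the same direction. Basal-like cells held 3.80 and 4.49 CPM (23 and 39 UMIs in all), spinous-like cells 24.9 and 17.0 CPM (45 and 52 UMIs), and granular-like cells 37.9 and 23.0 CPM (87 and 59 UMIs). The suprabasal over basal log2 ratio was 3.08 (2.43 to 3.79) in the control and 2.14 (1.60 to 2.70) in the Gli2EKO library. The step from spinous-like to granular-like cells was 0.61 (0.08 to 1.16) in the control and 0.44 (−0.13 to 1.003) in the Gli2EKO library, so that at this depth the Gli2EKO step could not be told from no difference. Even in the granular-like class 51.9% of control and 63.7% of Gli2EKO cells had no Grhl3 UMI.

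The pair parted in the follicle. Grhl1 was as high in the inner layers of the follicle and in the gland as in suprabasal IFE or higher, at 236 and 239 CPM in IRS-like, 223 and 254 CPM in hair shaft-like, 226 and 182 CPM in SG-like and 186 and 201 CPM in companion layer-like cells. Cells of the outer layers held less, with 32.4 and 26.9 CPM in ORS-like and 49.3 and 38.3 CPM in upper follicle-like cells. Grhl3 reached 22.3 and 30.5 CPM in IRS-like and 23.9 and 34.4 CPM in companion layer-like cells, and no more than 1 UMI was counted in hair lineage-like or SG-like cells of either library, the classes in which Grhl1 gave 269 and 141 CPM and 226 and 182 CPM. Over all IFE against all follicle cells, the log2 ratio of Grhl1 was −0.49 and −0.80 and that of Grhl3 1.01 and 0.13. These directions were not stable, since without doublet removal the ratio of Grhl1 was 0.21 and 0.04, and with mitochondrial UMIs under 10% that of Grhl3 was 0.64 and −0.25.

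Zfp750, the p63 target that promotes terminal differentiation, made the steepest single step of the set into the spinous-like class and then stayed level. It was at 10.2 and 11.7 CPM in basal-like, 105 and 97.8 CPM in spinous-like and 104 and 99.4 CPM in granular-like cells. The suprabasal over basal log2 ratio was 3.35 (2.96 to 3.76) in the control and 3.07 (2.76 to 3.39) in the Gli2EKO library, whereas that of granular-like over spinous-like cells was −0.01 (−0.29 to 0.27) in the control and 0.02 (−0.22 to 0.27) in the Gli2EKO library.

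In the follicle Zfp750 was at IFE suprabasal levels or above in companion layer-like (159.9 and 179.7 CPM), IRS-like (156 and 183 CPM), hair shaft-like (147 and 176 CPM) and SG-like cells (98.2 and 131 CPM). The outer classes and the matrix were low, with 12.4 and 9.80 CPM in ORS-like, 13.5 and 21.1 CPM in upper follicle-like and 25.5 and 29.2 CPM in matrix-like cells. In hair lineage-like cells, where Grhl1 was high, Zfp750 was at most 12.2 CPM in either library. Whole IFE and whole follicle levels were 48.4 and 45.8 CPM and 49.8 and 58.9 CPM, a log2 ratio of −0.04 and −0.36, which without doublet removal became 0.84 and 0.74.

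Ovol1, a zinc finger repressor of growth genes, rose less. Among the layers it was highest in the joined spinous-like class, a maximum carried by the stress-led cluster described below. It was at 21.7 and 22.2 CPM in basal-like, 55.2 and 39.2 CPM in spinous-like and 45.4 and 28.9 CPM in granular-like cells, a suprabasal over basal log2 ratio of 1.199 (0.88 to 1.53) in the control and 0.64 (0.34 to 0.93) in the Gli2EKO library, past 2-fold in the control library alone. Its UMIs were concentrated in few cells, since the 10% of basal-like cells with the most Ovol1 UMIs held 79.4% and 75.1% of them, and the top 10% of spinous-like cells 72% and 60.8%, with up to 15 and 21 UMIs in 1 cell. In the follicle Ovol1 was highest in hair shaft-like cells, at 95.4 and 102 CPM, followed by IRS-like cells at 56.7 and 68.4 CPM, and nearly absent from ORS-like and upper follicle-like cells, at 3.59 and 4.06 CPM and 6.26 and 5.27 CPM.

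The spinous-like class joined a cluster led by Clca3a2 and Npl with a cluster led by Krt16, Fosl1 and Atf3, genes of the stress response, and Ovol1 differed between them, at 14.1 and 18.0 CPM in the first and 86.5 and 70.7 CPM in the stress-led cluster. Zfp750 showed the opposite order, at 129 and 120.3 CPM in the first and 86.5 and 64.2 CPM in the stress-led cluster. Grhl1 lay at 115 and 93.5 CPM and 104 and 74.0 CPM, and Trp63 at 344 and 297 CPM and 323 and 219 CPM. The rise of Grhl1 and Zfp750 above the basal level was present in both clusters and in both libraries. Within the spinous-like class that of Ovol1 was present in the stress-led cluster alone, since the first cluster did not exceed the basal-like level of 21.7 and 22.2 CPM. For granular-like over basal-like cells the log2 ratio of Ovol1 was 1.07 (0.68 to 1.45) in the control. In the Gli2EKO library it was 0.38 (−0.03 to 0.77), which included no difference.

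To place the changes along the layers without borders between the IFE classes, all cells of these classes were ordered by their suprabasal minus basal marker score. They were divided into 6 bins of 223 cells over both libraries. The bins are equal in cells and not in score, which is on a log2 scale. Bins 1 to 4 lay between −5.78 and −1.81, bin 5 between −1.81 and 2.08 and bin 6 between 2.10 and 12.2. A gene that changed evenly along the score would also take its largest steps into bins 5 and 6. The members took no part in the score. Krt10, a spinous marker that did, stayed at or below 345 CPM in the first 4 bins and then stood at 9149 and 9496 CPM in bin 5 and at 32496 and 33893 CPM in bin 6. Of the cells in bin 5, 76.2% of the control and 81.8% of the Gli2EKO cells belonged to the spinous-like or granular-like class.

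Most members took their largest step in CPM into bin 5 or bin 6. These bins have the widest ranges of score, so the place of the step is not read as a result. Zfp750 went from 17.5 and 21.8 CPM in bin 4 to 92.9 and 94.0 CPM in bin 5 and 105 and 95.6 CPM in bin 6. It was at 1.91 and 1.07 CPM in bin 1, from 3 and 2 UMIs, too few to size the earlier rise to bin 4. Grhl1 went from 20.02 and 15.7 to 90.3 and 76.4 and 160.4 and 128 CPM over the same bins, from 10.8 and 8.54 CPM in bin 1. Klf4 rose from 263 and 181 to 443 and 333 and 667 and 549.7 CPM, from a level that had varied between 211 and 263 CPM in the control and between 144 and 185 CPM in the Gli2EKO library over bins 1 to 4. Trp63 fell over these bins, from 478 and 433 to 341 and 262 and 215 and 212 CPM.

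Others rose and fell again. Klf5 was highest in bin 5 in the control and stood level in bins 4 and 5 in the Gli2EKO library, at 486 and 479 CPM, and fell to 351 and 342 CPM in bin 6 from 627 and 479 CPM in bin 5. Tfap2c peaked in bin 5, at 89.7 and 91.8 CPM, above 52.6 and 59.4 CPM before it and 60.4 and 73.4 CPM after it. Ovol1 peaked in bin 5 in the control library, at 64.7 CPM, while in the Gli2EKO library it was at 32.2 and 36.6 CPM in the last bins. Grhl3 went from 2.54 and 1.07 CPM in bin 1 to 7.51 and 7.61 in bin 4, 26.3 and 16.5 in bin 5 and 34.2 and 21.2 CPM in bin 6. Trp63 was thus lower in the same bin in which Zfp750, Grhl1, Grhl3 and Klf4 were higher, and Klf5 was lower a bin later. The order of changes inside these wide bins was not resolved.

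**Figure D3:**
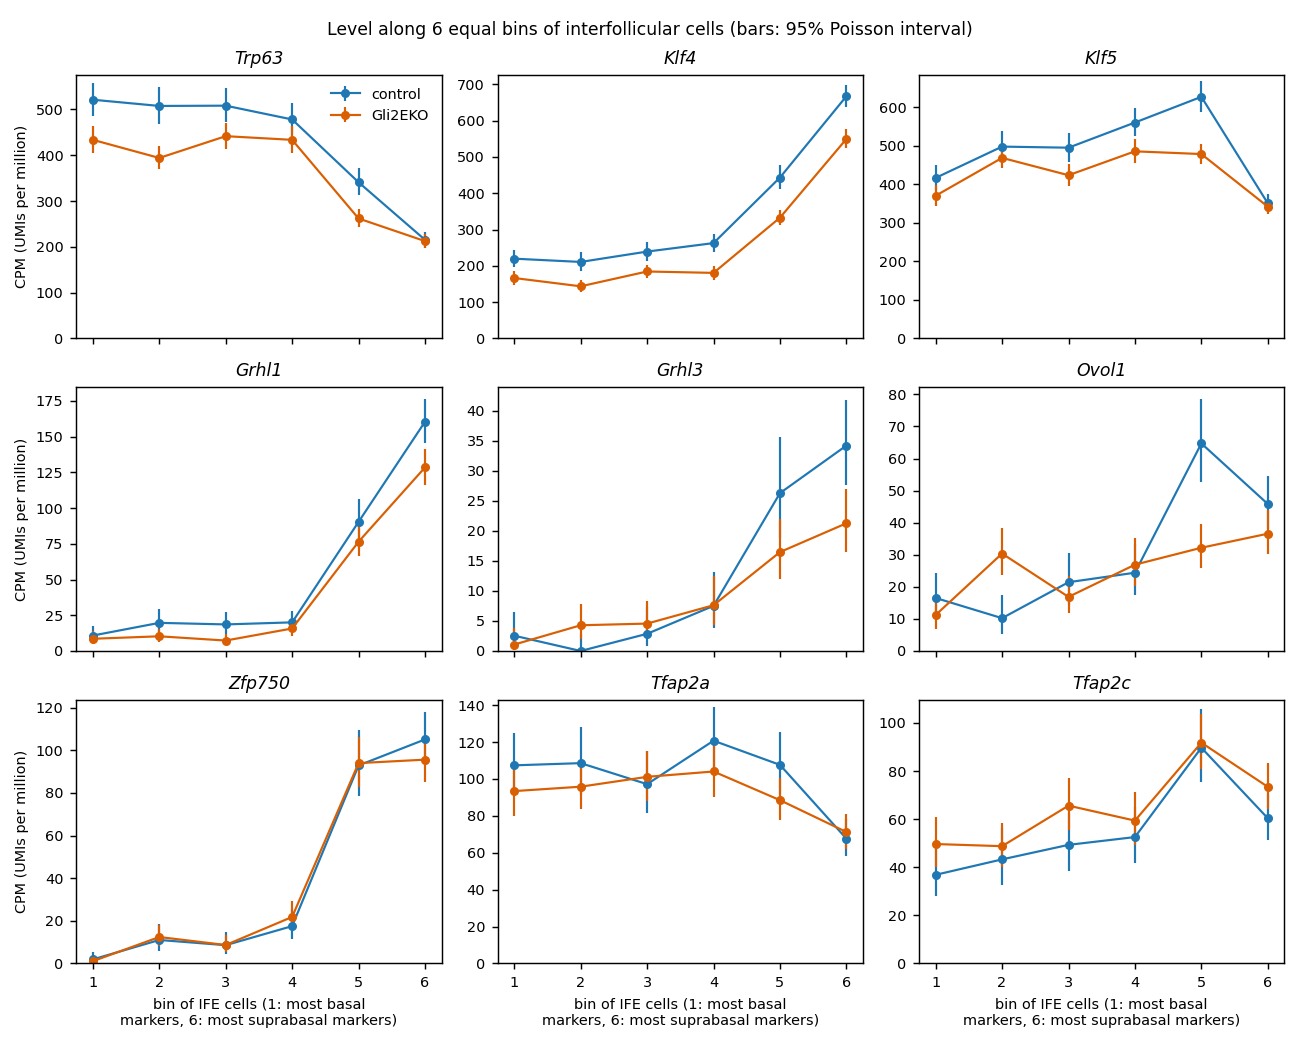
Level of each member in CPM (vertical axis from 0) along 6 bins of IFE cells ordered from most basal markers (bin 1) to most suprabasal markers (bin 6), for the control (blue) and Gli2EKO (orange) libraries with 95% Poisson intervals. The bins are equal in cells, and bins 5 and 6 span the widest ranges of score. Grhl1 and Zfp750 stay at or below 21.8 CPM through bin 4 and stand at 76.4 CPM or more in bins 5 and 6, while Trp63 falls to 215 and 212 CPM in bin 6.

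Between the genotypes most members differed by less than 1.5-fold within a class. At least that difference was found for 1 of 9 members in basal-like cells (Grhl1, lower in Gli2EKO), against 12.6% of genes, and 1 in suprabasal cells (Grhl3, lower), against 14.2%. In follicle keratinocytes together 0 of 9 passed, against 14.9%, and over all keratinocytes 0 of 9, against 18.4%. At shares of genes this large, 0 or 1 of 9 members is near the background and no result about the set.

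In basal-like cells Grhl1 was at 18.7 and 11.7 CPM (113 and 102 UMIs), a log2 ratio of Gli2EKO over control of −0.67 (−1.07 to −0.27). The share of basal-like cells with a Grhl1 UMI did not exceed background in either library, as given below. Both clusters of the class gave the same direction, at 18.4 and 11.5 CPM in the larger and 19.1 and 12.2 CPM in the one led also by histone genes. Klf4, Klf5 and Trp63 were lower by less, with log2 ratios of −0.47 (−0.57 to −0.36), −0.21 (−0.28 to −0.14) and −0.24 (−0.31 to −0.17), while Tfap2c was higher, at 0.26 (0.05 to 0.48). The intervals of Grhl3, Ovol1, Zfp750 and Tfap2a in basal-like cells included no difference.

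In suprabasal cells Grhl3 was at 32.2 and 19.7 CPM, a log2 ratio of −0.70 (−1.08 to −0.33). It fell inside 1.5-fold, leaving 0 members, when levels were averaged over cells or when the libraries were not integrated before clustering. Taken apart, 0 of 9 members passed in spinous-like cells, against 15.1% of genes, and 2 in granular-like cells, against 17.5%: Grhl3 at −0.72 (−1.22 to −0.23) and Ovol1 at −0.65 (−1.10 to −0.21). Ovol1 in granular-like cells was at 45.4 and 28.9 CPM, and the gap lay largely in the marker-rich cells (73.1 and 20.8 CPM, from 38 and 8 UMIs) and less in the rest (37.2 and 30.3 CPM). Klf4 was lower in spinous-like cells, −0.51 (−0.64 to −0.38), and in the granular-like cells below 1% of granular markers, −0.51 (−0.63 to −0.40), but higher in the marker-rich ones, 1.05 (0.83 to 1.27). Granular markers moved with these values, as the granular-like class of the Gli2EKO library held 6168 against 35697 CPM of them, and their part in the differences of Grhl3, Ovol1 and Klf4 was not tested.

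In the follicle classes few members passed 1.5-fold, and most of those rested on low counts. In ORS-like cells 1 of 9 passed, against 11.7% of genes: Grhl3 was at 3.499 and 1.86 CPM, a log2 ratio of −0.91 (−2.03 to 0.08). In upper follicle-like cells it was Zfp750, at 13.5 and 21.1 CPM and 0.65 (0.21 to 1.09), against 16.8% of genes. In companion layer-like cells it was Klf5, at 129 and 195 CPM and 0.60 (0.39 to 0.80), against 21.4%. The Defb6-led sub-cluster, at 227 and 271 CPM, made up 52 of 229 control and 54 of 149 Gli2EKO cells of that class, and the larger cluster was at 80.2 and 128 CPM. In matrix-like and IRS-like cells 0 of 9 and in hair shaft-like cells 0 of 8 tested members passed, against 16%, 22.6% and 24.7% of genes.

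More members passed in SG-like and hair lineage-like cells, and so did more of all genes. In SG-like cells 2 of 8 members with enough UMIs passed, both lower in Gli2EKO, against 32.9% of genes: Tfap2a at −1.002 (−1.48 to −0.54) and Klf5 at −1.09 (−2.01 to −0.23). In hair lineage-like cells 3 of 7 passed, against 29.3%: Klf4 was higher at 0.98 (0.19 to 1.73), Ovol1 higher at 0.84 (−0.19 to 1.78) and Grhl1 lower at −0.93 (−1.54 to −0.37). These classes held 26 to 87 cells per library, and at such shares of genes the counts are no result about the members. Trp63 differed by less than 1.5-fold where it was lower, in upper follicle-like (−0.43), companion layer-like (−0.41) and IRS-like cells (−0.43), and it was slightly higher in ORS-like cells, at 0.09 (0.03 to 0.15).

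**Figure D4:**
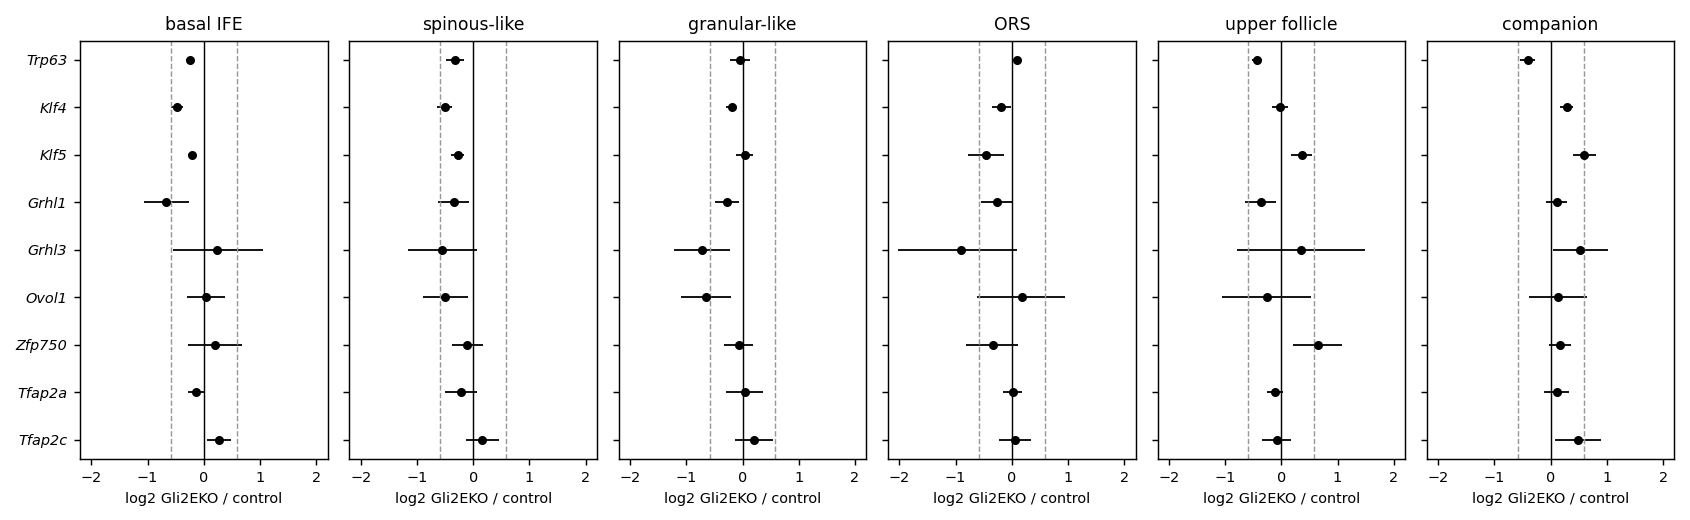
Log2 ratio of CPM, Gli2EKO over control, for each member (rows) in 6 keratinocyte classes, with 95% counting intervals and dashed lines at a 1.5-fold difference. Most intervals cross or lie near 0. Grhl1 in basal IFE (−0.67), Grhl3 and Ovol1 in granular-like cells (−0.72 and −0.65) and Grhl3 in ORS-like cells (−0.91) lie beyond the left line. Zfp750 in upper follicle-like cells (0.65) and Klf5 in companion layer-like cells (0.60) lie beyond the right line.

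Over all keratinocytes the ratios of Klf5 and Klf4 moved with the proportions of clusters. IFE cells were 15.7% (14.4 to 16.9%) of control and 35.5% (33.5 to 37.4%) of Gli2EKO keratinocytes, and Klf5, the member with the strongest tie to the IFE, was at 159 and 228 CPM over all keratinocytes, a log2 ratio of 0.52 (0.47 to 0.57). With the Gli2EKO clusters weighted by their control proportions the ratio of Klf5 became −0.08, and that of Klf4 went from 0.20 to −0.17. For the other 7 members the log2 ratios lay between −0.30 and 0.24 unweighted, and the weighted ones between −0.13 and 0.13. Within the IFE layers the log2 ratio of Klf5 was −0.21 in basal-like, −0.27 in spinous-like and 0.04 in granular-like cells.

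Shares of cells with a UMI were also compared between the layers. With each cell thinned to 2000 UMIs, a Klf5 UMI was found in 59.7% (54.3 to 64.8%) of control and 56.4% (52.2 to 60.6%) of Gli2EKO basal-like cells, in 70.3% and 65.5% of spinous-like and in 3.72% and 3.08% of ORS-like cells. A Klf4 UMI was found in 32.4% and 27.8% of basal-like, 62.6% and 47.9% of spinous-like and 62.3% and 61.5% of granular-like cells, so that in the control the last step of the summed level was not seen in the share. For Grhl3 the Gli2EKO share was 6.06% of spinous-like and 4.40% of granular-like cells, against the order of its summed levels, and no order of these layers is read from it. Grhl1 went from 3.41% and 2.14% of basal-like to 26.0% and 28.6% of granular-like cells and Zfp750 from 0.568% and 1.78% of basal-like to 23.1% and 11.5% of spinous-like cells.

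As background served the joined immune and endothelial cells, with a median of 9886 and 11307 UMIs against 15533.5 and 14241 in basal-like cells before thinning. In 115 of these control cells a Trp63 UMI was found in 4.35% (1.43 to 9.85%), a Klf5 UMI in 1.74% (0.211 to 6.14%) and a Grhl1 or Zfp750 UMI each in 0.870% (0.0220 to 4.75%). In the Gli2EKO library 0 of 44 such cells had a UMI of a member other than Klf4, which allows a share of up to 8.04%. The Klf4 share there, 12.2% and 4.55%, was the highest of the members, and endothelial cells are known to express Klf4. The basal-like shares of Grhl1, 3.41% and 2.14%, Grhl3, 0.852% and 0.712%, and Zfp750, 0.568% and 1.78%, and the ORS-like shares of Klf5 lay within the intervals of the background. The shares alone are not read as expression, and the few background cells leave these intervals wide. The folds given above over these levels are therefore ratios to levels whose shares were not shown to exceed background. The summed Klf5 level of ORS-like cells, 25.5 CPM (22.6 to 28.7) and 18.6 CPM (15.3 to 22.4), did lie above that of the background cells. The latter was 11.6 CPM (6.36 to 19.5) and 3.71 CPM (0.449 to 13.4). Other cells outside the keratinocytes held more Klf5 than these background cells, with 52.2 and 43.2 CPM in fibroblasts and 24.8 and 40.3 CPM in melanocytes. The ORS-like level did not lie above that of fibroblasts. Over all keratinocytes the thinned shares ran from 1.24% and 2.22% for Grhl3 to 53.2% and 51.4% for Trp63, and without thinning from 8.49% and 10.1% to 92.5% and 92.3%.

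**Figure D5:**
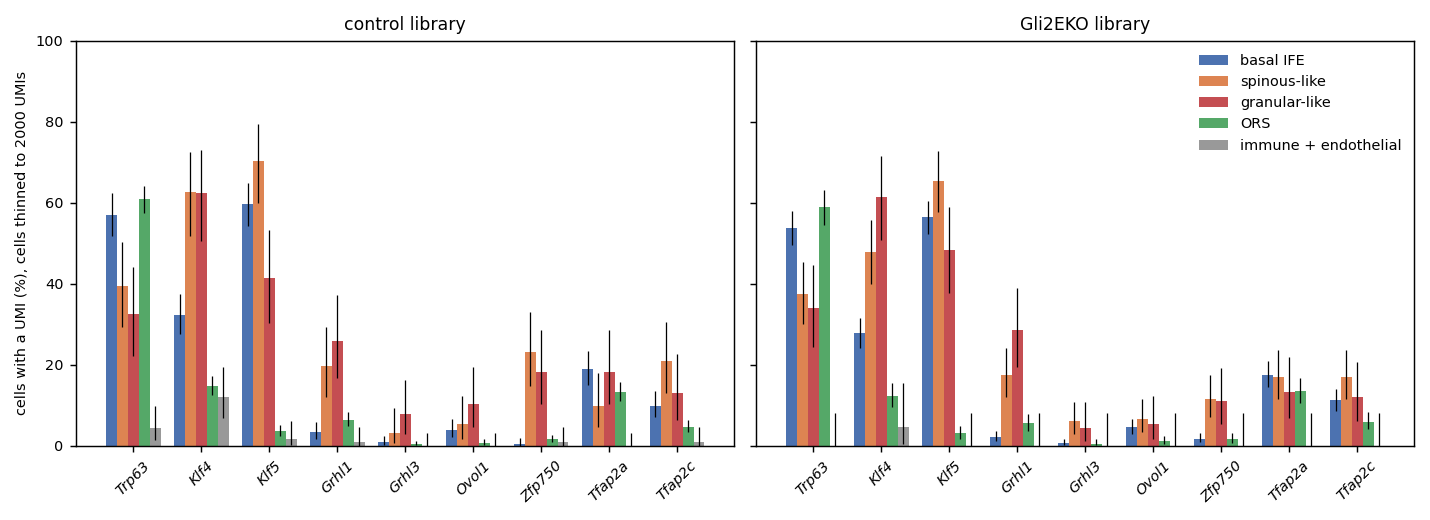
Share of cells with a UMI of each member (vertical axis, 0 to 100%) after each cell was thinned to 2000 UMIs, in the 3 IFE layers, ORS-like cells and the joined immune and endothelial cells of the control (left) and Gli2EKO (right) library, with 95% Clopper-Pearson intervals. Klf5 is found in 56.4% or more of basal-like and in at most 3.7% of ORS-like cells, while Trp63 is found in 53.7% or more of both.

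Single cells combined more of the factors above the basal layer. With cells thinned to 5000 UMIs, a mean of 3.09 and 2.89 of the 9 members was found in a basal-like cell, 4.07 and 3.97 in a spinous-like cell, 3.96 and 3.72 in a granular-like cell, 2.53 and 2.36 in an upper follicle-like cell and 1.85 and 1.72 in an ORS-like cell, against 0.433 and 0.325 in the joined immune and endothelial cells. At least 5 members were found in 8.36% and 5.05% of basal-like and in 31.1% and 34.6% of spinous-like cells.

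The basal factor p63 and the factors of differentiation were found in the same cells. UMIs of both Trp63 and Zfp750 were found in 23.3% (15.1 to 33.4%) of control and 26.1% (19.4 to 33.9%) of Gli2EKO spinous-like cells at 5000 UMIs, close to the 24.6% and 24.5% that the separate shares would give if independent. Trp63 and Grhl1 were found together in 34.2% (23.7 to 46.0%) and 32.6% (23.0 to 43.3%) of granular-like cells, against 26.3% and 29.7% if independent, within the intervals. Thinning left out 1 control and 12 Gli2EKO spinous-like cells and 1 and 2 granular-like cells as too shallow.

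Across the 11 keratinocyte classes of both libraries, 22 points in all, the members' levels on the log2(CPM + 10) scale were compared in pairs. Pearson's r was 0.79 between Klf4 and Grhl3, 0.76 between Klf4 and Klf5, 0.70 between Grhl1 and Zfp750, 0.69 between Grhl3 and Zfp750 and 0.69 between Grhl1 and Ovol1. Trp63 ran against Zfp750 (−0.66) and Grhl1 (−0.48), and Tfap2a tracked no other member, with r between −0.18 and 0.20. The points share 2 libraries and each class appears in both, so r is a description without a test.

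Among 13042 genes with at least 50 keratinocyte UMIs per library, the 3 whose pattern over these points was most like that of a member included other genes of differentiation. Nearest to Zfp750 were Notch3 (0.98), Cldn4 (0.91) and Rhov (0.91), the first a Notch receptor and the second a tight junction protein. Nearest to Klf4 were Klf3 (0.93), Jup (0.93) and Pkp1 (0.93), a related factor and a pair of desmosomal proteins, and nearest to Grhl3 were Evpl (0.89), Lypd3 (0.89) and Rab25 (0.87), the first a cornified envelope protein.

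Trp63 was nearest to Plec (0.93), Btbd11 (0.92) and Lama3 (0.89), of which Plec and Lama3 encode proteins of the anchorage to the basement membrane. Aqp3, the water and glycerol channel of the basal epidermis, was nearest to Klf5 (0.88), and Ptgfrn was also among the 3 nearest (0.87). Grhl1 was nearest to Chd7 (0.94), Hip1r (0.93) and Ap1b1 (0.91), and Ovol1 to Sipa1l2 (0.91), Zfp692 (0.87) and Nsun2 (0.87). The AP-2 genes had looser neighbours, with ENSMUSG00000120669 (0.79), Ipp (0.77) and Arhgef26 (0.76) for Tfap2a and Utp14a (0.86), Snhg16 (0.83) and Dusp12 (0.82) for Tfap2c.

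Among 26 other transcription factors of epidermis and follicle, 24 reached the limit on UMIs in the suprabasal to basal comparison. Of these, 6 were at least 2-fold higher in both libraries, Cebpa, Cebpb, Prdm1, Foxn1 and Dlx5 among them, against 5.53% of genes, and 3 were lower (Grhl2, Ovol2 and Satb1), against 16.4%. Grhl2 and Ovol2, relatives of Grhl1, Grhl3 and Ovol1, went the other way, with log2 ratios of −1.08 and −1.04 and, from 3 suprabasal UMIs in each library, −3.38 and −3.69. Cebpa and Cebpb, factors of keratinocyte differentiation, gave 1.66 and 1.68 and 1.19 and 1.29. Gata3, known as a p63 target in the epidermis, did not pass, at −0.25 and −0.29. The median of the list was 0.24 in the control and 0.48 in the Gli2EKO library, against −0.31 and −0.32 over all genes.

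Between IFE and follicle, 5 of these 26 factors shared the direction of Klf5, Elf3, Satb1, Klf3 and Dlx5 among them, against 5.12% of genes, and 10 were lower in the IFE (Elf5, Cebpb, Prdm1, Vdr, Hopx, Tcf7l1, Sox9, Lhx2, Hoxc13 and Dlx3), against 14.9%. Satb1 gave 2.16 and 2.57, and the follicle factors Sox9 and Lhx2 gave −2.06 and −2.68 and −4.52 and −6.42. Of 8 cofactors through which such factors act, Kdm1a, Ctbp1 and Hdac1 among them, 0 passed 2-fold in either direction in the suprabasal to basal or the IFE to follicle comparison. Of all genes, 5.53% were higher and 16.4% lower in the former, and 5.12% and 14.9% in the latter.

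Lists of genes known to depend on the factors also differed between the layers, and part of them are markers that named the classes. Of 12 basal genes known as targets of p63, 11 were at least 2-fold lower in suprabasal cells, against 16.4% of genes, with a median log2 ratio of −1.97 and −1.74. Perp, a desmosomal protein, was the 1 that was higher, at 1.32 and 1.34. Of the 11, Krt5, Krt14, Col17a1, Itga6 and Itgb4 are basal markers that named the classes. Of 18 barrier and late differentiation genes with enough UMIs, among them targets of Klf4, Grhl and Zfp750 factors, 12 were at least 2-fold higher, against 5.53% of genes. None was lower, against 16.4%, and the median of the 18 was 3.52 and 4.21. Abca12, the lipid transporter of the barrier, gave 4.04 and 5.14 and Evpl 1.64 and 1.86, whereas the tight junction gene Cldn1 gave 0.24 and 0.79. Lor, Flg, Cdsn and Tgm3 of this list are granular markers that named the classes. Between the libraries, 5 of the 18 (Ivl, Lor, Flg, Cdsn and Aloxe3) were at least 1.5-fold lower in Gli2EKO suprabasal cells, against 8.41% of genes, and 0 were higher, against 5.75%. Of these, Lor, Flg and Cdsn are themselves granular markers, which summed to 35697 and 6168 CPM in the granular-like class. The part of the granular markers in the difference of Ivl and Aloxe3 was not tested.

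Other lists gave the state of the cells. All 6 division genes, Mki67 and Top2a among them, were at least 2-fold lower in suprabasal than in basal-like cells in both libraries, against 16.4% of genes. Their sum fell from 1648 and 1417 CPM to 183 and 161 CPM. The 11 dissociation stress genes held 0 that passed between these layers, against 5.53% of genes higher and 16.4% lower. Of the 5 simple epithelium and Merkel cell genes, 0 reached the limit on UMIs within the IFE layers.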

How the data were processed

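Single cells of epidermal whole mounts were captured with a 10x 3' kit, and the authors deposited UMI counts per gene and barcode, made with Cell Ranger 9.0.1 against GRCm39 per the labels and the study's methods. Both libraries were used as deposited. The members and gene lists were chosen with earlier results of these data known. Cells with more than 1000 and fewer than 8000 genes and under 15% mitochondrial UMIs were kept, and the 8% of each library with the highest Scrublet scores were removed (scanpy 1.11.5). The Scrublet threshold set by the tool itself marked uneven numbers, 260 and 5 barcodes, and was not used. Cells were clustered in R 4.3.3 (Seurat 5.3.0) on 2000 variable genes and 20 principal components after integration with an own implementation of Harmony, at resolution 0.5, and keratinocytes again without 35 factors among the variable genes. Clusters scoring highest for spinous, granular or hair markers were divided at resolution 0.3. Names came from marker lists, with at least 3 markers in 10% of cells.

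Genes with at least 20 UMIs over the compared groups were compared, with 0.5 UMIs added to each side of a ratio over all genes. Named were the members, for each member the 3 genes most correlated with it over classes, class markers, and genes of the lists of factors, cofactors, targets, barrier, stress and division genes. Poisson, binomial and Clopper-Pearson intervals were exact (scipy 1.17.1). Scripts were checked on simulated counts. A few values of listed genes and 1 promoter are not reported here.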

Additional observations from a re-analysis of the deposited data

How the results depend on the processing

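No paired analysis was possible because each genotype has 1 library. The 4 members at least 2-fold higher in suprabasal than in basal-like cells were the same genes under all 11 alternatives, 3 of them chosen after seeing the data, and the counts of members lower there and of members past 1.5-fold between genotypes in the follicle remained 0. The count of members higher in IFE than in follicle cells went from 1 to 2, Klf4 joining Klf5, with classes taken from the highest-scoring marker list in each cell, without doublet removal, without integration, with the factors allowed among the variable genes, and, among those added later, with the sub-cluster led by Defb6, Cst6 and Krt79 counted as suprabasal or with clusters led by histone or division genes left out. The genotype count in basal-like cells went from 1 to 2, Grhl3 joining Grhl1, without doublet removal, with the factors allowed or with the histone-led clusters left out. In suprabasal cells it went from 1 to 0 with the mean of per-cell CPM and without integration, and to 2 with the stress-led cluster left out (Grhl3 and Ovol1), with the highest-scoring list (Grhl3 and Ovol1) and with mitochondrial UMIs under 10% (Klf4 and Grhl3). Of the members' IFE over follicle ratios inside 2-fold, that of Grhl1 ran on the log2 scale from −0.74 to 0.21 in the control and from −1.10 to 0.06 in the Gli2EKO library, that of Zfp750 from −0.29 to 0.85 and from −0.51 to 0.75, and that of Grhl3 in the Gli2EKO library from −0.25 to 0.96, so their directions turned. The cause was not tested. The median share of keratinocytes with a member's UMI was 13.1% at 2000 UMIs per cell, 24.3% at 5000 and 42.9% without thinning, so the shares measure depth as well as expression. Grhl3, with 23 and 39 UMIs in basal-like cells, is the member most limited by depth.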
